A study of Mus musculus with 6 samples.

Results

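Cadherins are the calcium-dependent adhesion proteins by which neighbouring cells hold on to one another, and catenins are the proteins that tie them to the cytoskeleton. Their genes were picked out of the deposited count table by symbol: Cdh followed by a number, Celsr1 to Celsr3, Fat1 to Fat4, Dchs1 and Dchs2, and the alpha, beta and delta catenin genes Ctnna, Ctnnb and Ctnnd followed by a number. The rule found 38 of the 36291 gene rows, namely 5 type I and 13 type II classical cadherins, Cdh13, 5 further cadherins, 3 Celsr genes, 5 genes of the Fat and Dachsous family and 6 catenins. Dchs2 was not analysed here. The rule used no measured value.

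The libraries came from 3 knockout (KO) and 3 wild-type (WT) samples of telencephalon, the embryonic forebrain, of Swiss mice at E14.5. KO refers to knockout of Zeb2, which the series title calls Sip1, with Nkx2-1-iCre, a Cre recombinase driver. In both genotypes the libraries were made from fluorescence-sorted eGFP+ cells, that is, green fluorescent cells targeted by the same driver. Nkx2-1 marks the medial ganglionic eminence (MGE), a ventral source of cortical interneurons. The sort aimed at cells targeted by the driver, and whether all of them came from the MGE was not tested. The labels give neither the deleted part of Zeb2 nor the number of embryos behind a library, so each p-value reflects only how far these libraries scatter, which may be technical.

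Classical cadherins bind mostly to cadherins of the same or a related kind on the next cell. Beta- and delta-catenins bind the cadherin tail, and alpha-catenins join the complex to actin. In the developing forebrain the classical cadherins differ between regions and nuclei and contribute to the sorting of neurons into groups, while the Celsr proteins and the Fat and Dachsous proteins act in planar cell polarity, the orientation of cells within a sheet, and in neuronal migration and axon growth.

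Reads assigned to genes numbered 8323531 to 11069437 per library. Zeb2, the targeted gene, had 2856, 2759 and 3391 counts in KO libraries K77, K79 and K80, against 6468, 5350 and 8094 in WT libraries of the same numbers (log2 fold change -1.11, SE 0.138, edgeR adjusted p = 0.00116). The WT library K79 stood apart in its sex-linked transcripts: it held 26109 counts of Xist, against 13 to 28 in the 3 KO libraries and 22 and 16 in the other WT libraries, and 0 to 3 counts of each of 4 Y-linked genes, against 310 to 1276 in the other 5 libraries. Marker genes of the MGE lineage summed to 6035 to 6970 CPM (counts of a gene after scaling to a common library size) in KO and 5171 to 5860 CPM in WT, with Nkx2-1, Sox6 and Gad2 called higher and Dlx5 lower of 10 tested. The Sox6 and Dlx5 calls were each lost in 4 of the 6 fits without 1 library (adjusted p up to 0.0694 and 0.13). Oligodendrocyte precursor markers summed to 50.9 to 59.3 CPM in KO and 126 to 148 CPM in WT, with 5 of 6 called lower. Over all tested genes edgeR called 3.64% higher and 2.62% lower. Endothelial, pericyte and meningeal, erythroid, microglial and cortical glutamatergic markers gave 0 edgeR calls among 30 tested, with 2 at an unadjusted p under 0.05, while DESeq2 and limma voom called 0 and the replicate block described below 2. Each of these lists overlapped between genotypes in its summed level. The globin genes Hba-a1 and Hba-a2 had no count, but the erythroid list summed to 10.1 to 23.6 CPM in KO and 17.9 to 30.9 CPM in WT. The zeros therefore do not show that erythroid RNA was absent. Whether any of these shifts bears on the cadherin and catenin values below was not tested, and in bulk libraries fewer cells of a type and less RNA per cell cannot be told apart.

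Of the 38 genes, 29 had enough reads to be tested, and 6 of them changed by edgeR at an adjusted p under 0.05. The type I cadherin gene Cdh4, the type II genes Cdh7, Cdh8 and Cdh22 and the neuronal delta-catenin gene Ctnnd2 rose in KO, and the type II gene Cdh11 fell. The 5 risers and 1 faller stand beside a background of 3.64% of the 13835 tested genes called higher and 2.62% called lower. The remaining 23 were not called. The median log2 fold change, KO over WT, was 0.17 over the 29 genes and -0.0058 over all tested genes. It was positive in 20 of the 29, beside 6715 of all 13835 tested genes.

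With the K number that KO and WT libraries share taken as a replicate block, 6 were higher and 1 was lower, Cdh13 being the addition, beside 6.13% and 4.45% of all tested genes. The authors' deposited table called 7 of them higher and 1 lower, adding Cdh13 and Fat3 to the risers, beside 3.37% and 2.17% of the 21687 genes for which it gives an adjusted p. Leaving out WT K79 gave 6 higher of the 30 then tested, with Fat3 as the addition, and 0 lower, with Cdh11 at an adjusted p of 0.0551. In that fit 4.6% of 14032 genes were called higher and 2.84% lower. In 8 of the 29 every KO library lay above every WT library, and in 1 every KO library lay below, against 11.8% and 11.4% of all tested genes.

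**Figure D1:**
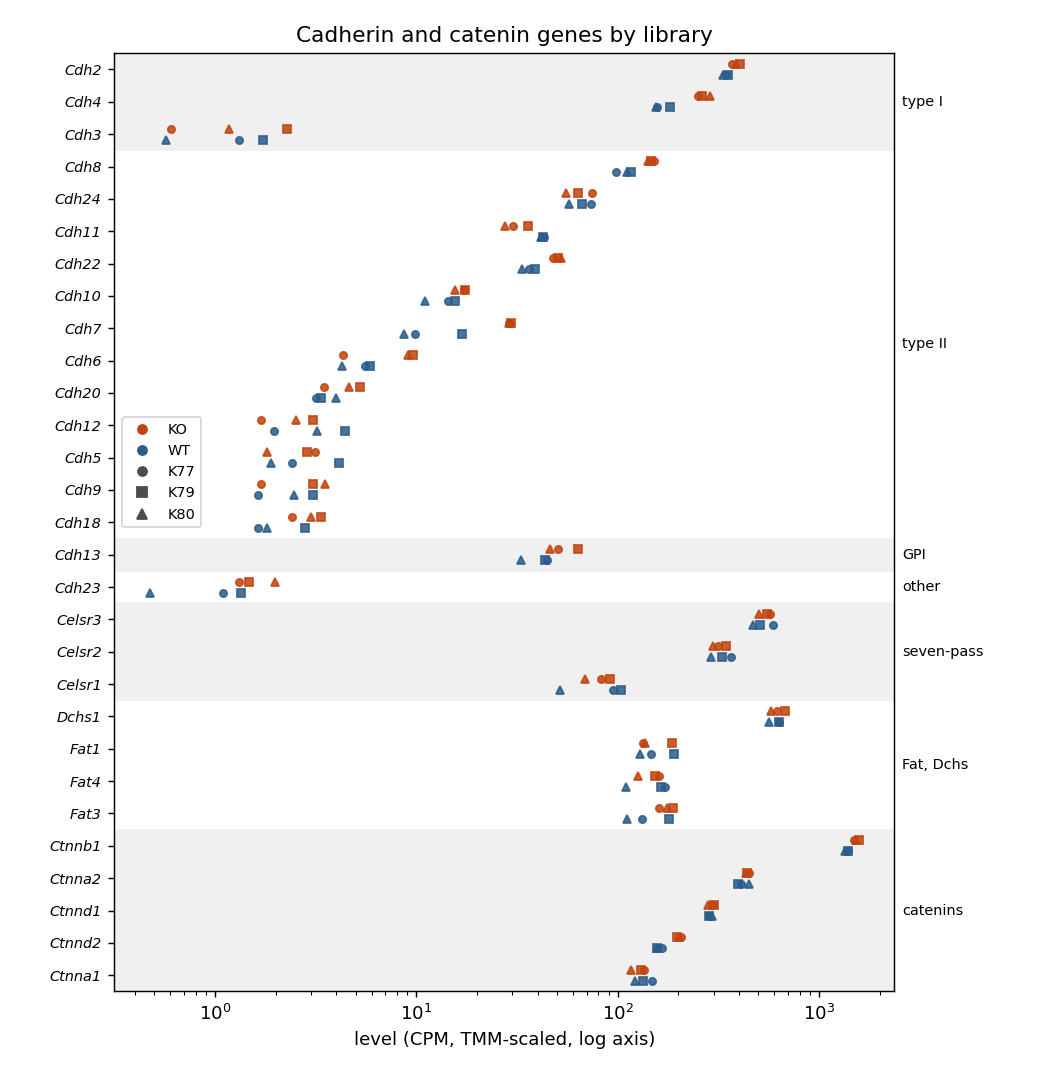
Level of each of the 29 tested genes in each of the 6 libraries, in CPM (not scaled for gene length) on a log axis, with KO points above WT points in each row and the marker shape giving the K number. Levels run from about 1 CPM for Cdh3 and Cdh23 to over 1000 CPM for Ctnnb1, and the KO and WT points do not overlap in Cdh2, Cdh4, Cdh7, Cdh8, Cdh22, Cdh13, Ctnnb1 and Ctnnd2 (KO above) and in Cdh11 (KO below).

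**Figure D2:**
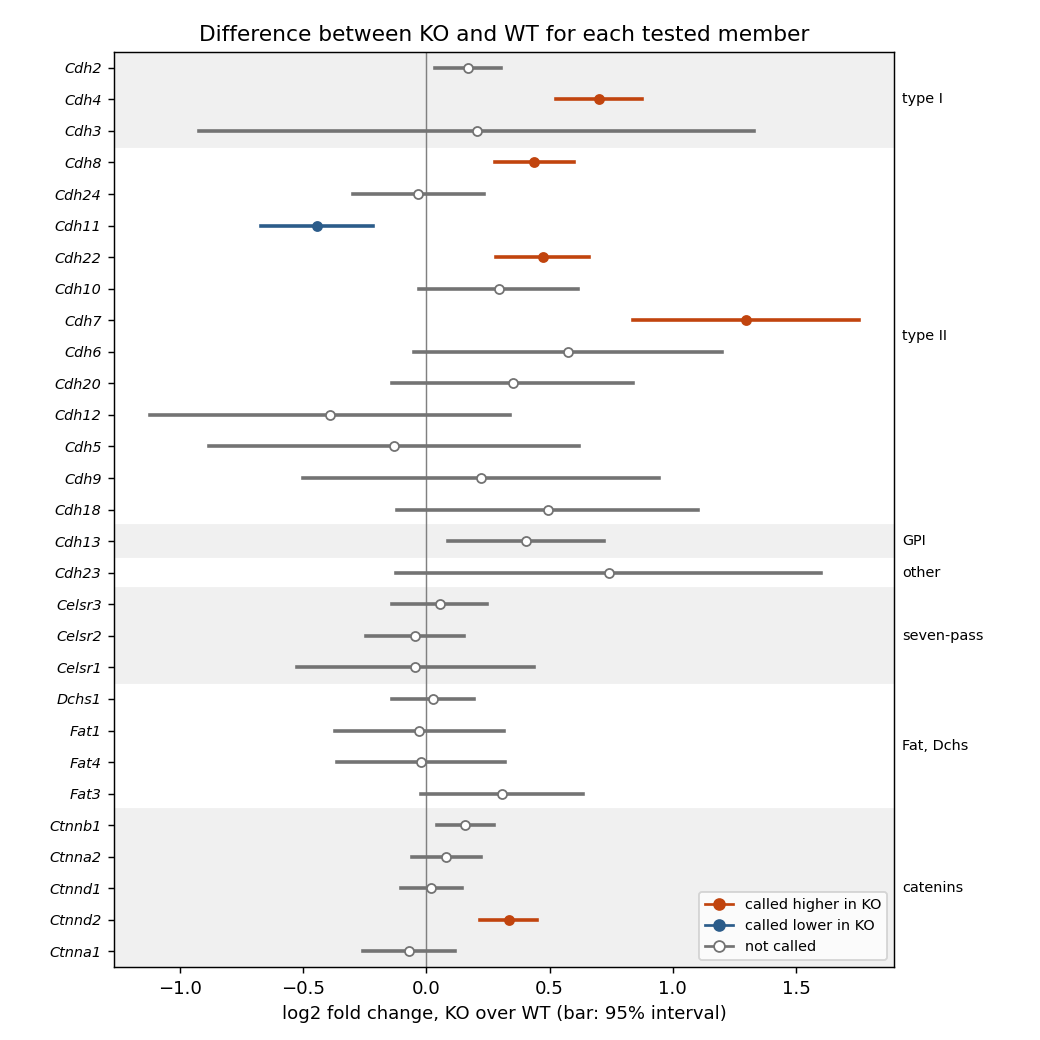
Log2 fold change, KO over WT, of each tested gene with its 95% interval from the edgeR fit. Filled points mark the 5 genes called higher and the 1 called lower, and open points the 23 not called. The intervals of the Celsr genes, Dchs1, Fat1, Fat4, Cdh24 and Ctnnd1 all include 0.

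Zeb2 encodes a zinc finger repressor of the family that binds the E-box CACCTG, whose reverse complement is CAGGTG. The start regions of the called genes Cdh7, Cdh8 and Cdh22 are shown, 250 bases before the annotated start on the gene's own strand. They come from RefSeq on GRCm38.p6, with any CACCTG or CAGGTG in capitals. Whether Zeb2 acts on these genes through such a box was not tested.
Cdh7 (chr1:109982650-109982899, plus strand): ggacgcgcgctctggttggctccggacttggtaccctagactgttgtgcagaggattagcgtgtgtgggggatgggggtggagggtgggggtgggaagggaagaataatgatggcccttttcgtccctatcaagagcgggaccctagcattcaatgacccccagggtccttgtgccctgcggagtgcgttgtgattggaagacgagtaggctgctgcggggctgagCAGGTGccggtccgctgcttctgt
Cdh8 (chr8:99416472-99416721, minus strand): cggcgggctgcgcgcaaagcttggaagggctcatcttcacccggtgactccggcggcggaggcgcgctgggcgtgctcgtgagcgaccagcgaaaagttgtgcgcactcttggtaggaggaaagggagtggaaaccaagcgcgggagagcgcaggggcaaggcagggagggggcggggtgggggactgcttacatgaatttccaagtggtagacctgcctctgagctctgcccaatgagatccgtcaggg
Cdh22 (chr2:165234738-165234987, minus strand): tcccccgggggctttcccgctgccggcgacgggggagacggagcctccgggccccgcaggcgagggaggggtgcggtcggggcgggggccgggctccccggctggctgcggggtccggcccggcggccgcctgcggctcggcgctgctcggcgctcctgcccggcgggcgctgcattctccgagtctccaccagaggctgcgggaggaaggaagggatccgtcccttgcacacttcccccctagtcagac
The Cdh7 stretch held 1 box, starting 24 bases before the gene start, and the stretches of Cdh8 and Cdh22 held none. The bases just after these 3 starts were found in a GENCODE transcript of the same gene. Those after the listed Ctnnd2 start were not, so its stretch is not shown, and its listed window held no box. Over all listed windows 22 of 30 had such a match. Cdh7 has 3 listed start windows of 300 bases (250 before to 50 after the start), and all 3 held a box. RefSeq start windows were listed for 24 of the 38 genes, not including Cdh4, Cdh11 or Cdh1. Among their 30 windows 6 held the box, or 20.0%, close to the 20.2% of all 32851 windows. Of the 4 called genes with a listed window, Cdh7 alone held a box. Beside Cdh7 the genes with a box were Celsr2, Ctnna2 and Fat1, none of them called. The bases after the listed Celsr2 start were not found in a GENCODE transcript of that gene. A match is a run of letters and not a measured binding site.

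Among the type I cadherins, whose members include the epithelial and neural cadherins, Cdh4 rose and the others tested did not pass the threshold. Cdh4 encodes R-cadherin, which the developing retina and brain express and which can bind N-cadherin as well as itself. Its level was 251, 261 and 287 CPM in KO libraries K77, K79 and K80, against 157, 181 and 154 CPM in WT. Every KO library lay well above the highest WT library, and the gap was wider than the spread within either genotype. The means were 266 ± 18.9 CPM in KO and 164 ± 15.0 CPM in WT (SD, n = 3 each), 0.70 on the log2 scale (SE 0.0783, adjusted p = 0.000683 by edgeR). The call held without any single library, with adjusted p at most 0.00544.

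Cdh2 encodes N-cadherin, the main classical cadherin of neural progenitors and neurons, and was the most abundant classical cadherin by level per kilobase of exon in both genotypes (48.0 CPM per kb in KO and 42.7 in WT). It had 368, 407 and 385 CPM in KO, against 347, 354 and 332 CPM in WT. The groups did not overlap, but the difference of 0.17 on the log2 scale (95% interval 0.03 to 0.30, edgeR adjusted p = 0.154) did not pass the threshold. The Cdh4 level per kilobase was 36.7 in KO and 22.6 in WT, below Cdh2 in both.

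Within a library the ratio of 2 genes does not depend on how that library is scaled. There were 0.681, 0.641 and 0.746 Cdh4 reads per Cdh2 read in KO, against 0.452, 0.512 and 0.465 in WT. Thus the KO libraries held more R-cadherin transcript for each N-cadherin transcript, without overlap (0.689 ± 0.0527 in KO and 0.476 ± 0.0316 in WT, SD, n = 3 each). This and the other ratios below were chosen after the values were seen and are given as descriptions, with no test.

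Cdh1 encodes E-cadherin, the epithelial cadherin that is a known target of repression by Zeb2 in epithelial cells. Few reads came from it, 9, 9 and 11 in KO libraries, against 2, 4 and 3 in WT, so it stayed below the filter on low counts. The KO counts were all above the WT counts. Summed over libraries they were 29 in KO and 9 in WT, a ratio of rates of 3.26 (95% exact interval 1.5 to 7.84, which covers counting error only). Fitted without the filter, its log2 fold change was 1.68 with an edgeR adjusted p of 0.0710, and the authors' deposited table gave 1.74 with an adjusted p of 0.0802. Its level was 0.989 CPM in KO and 0.296 CPM in WT, and per kilobase of exon it stood at 0.216 CPM in KO, where Cdh2 stood at 48.0.

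Cdh3, P-cadherin, which lies next to Cdh1 in the gene order, had 5, 23 and 13 counts in KO and 12, 18 and 6 in WT (log2 fold change 0.20, SE 0.505, edgeR adjusted p = 0.885). Its groups overlapped widely. Cdh15, the muscle cadherin, summed to 12 counts in KO and 5 in WT (ratio of rates 2.43, 95% exact interval 0.797 to 8.81), an interval that includes equal rates.

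**Figure D3:**
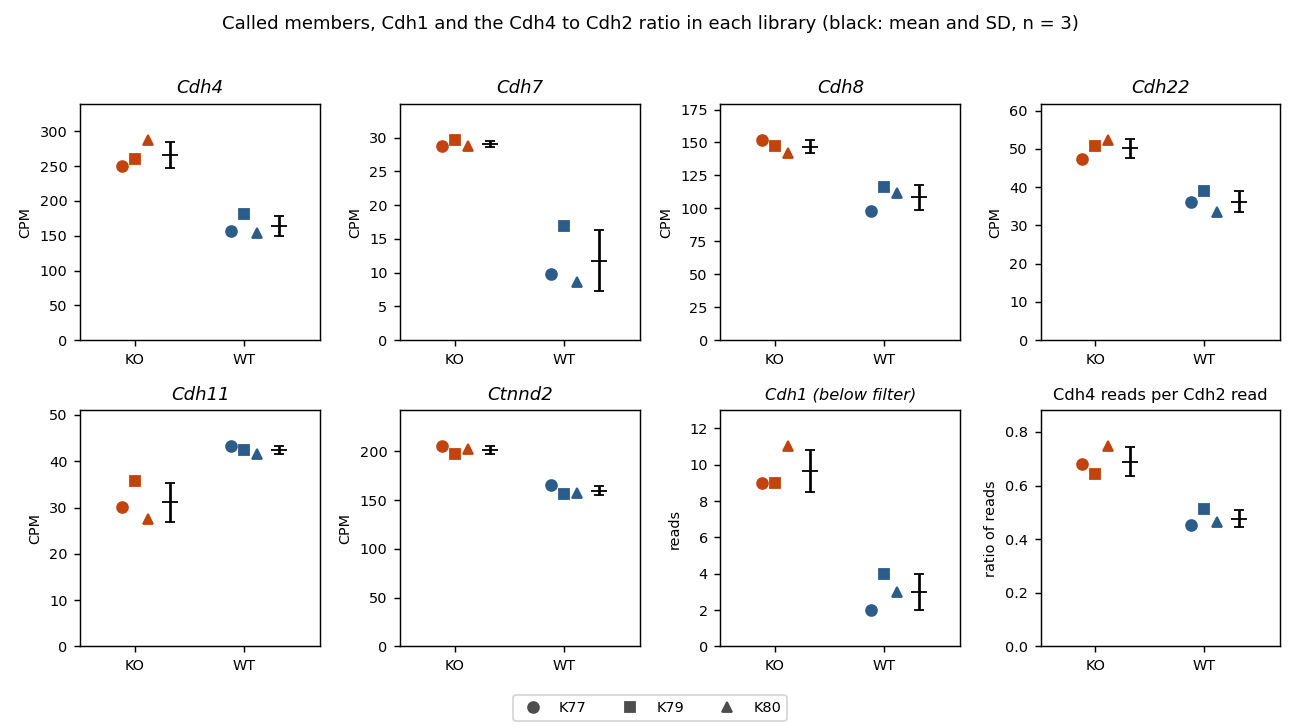
The 6 genes called between genotypes, the low-count gene Cdh1 and the ratio of Cdh4 to Cdh2 reads, in each library, with KO left of WT. Axes are CPM, except reads for Cdh1 and reads per read for the ratio, and black bars give the mean and SD (n = 3). In every panel the KO and WT libraries are apart, with Cdh11 the one panel in which KO is the lower group.

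Type II cadherins mark nuclei and subsets of neurons in vertebrate brains. They made up 12 of the 29 tested genes and held 4 of the 6 calls. Of the 12 tested, 3 rose, 1 fell and 8 were not called, with a median log2 fold change of 0.32. Over all 13835 tested genes 3.64% were called higher and 2.62% lower. Cdh7 showed the steepest change of all 29 tested genes. It had 28.7, 29.6 and 28.7 CPM in KO, against 9.81, 16.9 and 8.64 CPM in WT. The KO libraries lay close together, and WT K79 was the WT library nearest to them. The means of 29.0 ± 0.501 CPM in KO and 11.8 ± 4.46 CPM in WT (SD, n = 3 each) differed by 1.30 on the log2 scale (SE 0.206, adjusted p = 0.00448 by edgeR), or 2.46-fold. Without WT K79 the log2 fold change was 1.66 and the adjusted p was 7.35e-05, and no single left-out library ended the call (at most 0.0274).

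Cdh8 is known for its patterned expression in the forebrain, and its level per kilobase of exon was 19.0 CPM in KO and 14.0 CPM in WT. It had 152, 147 and 142 CPM in KO, against 97.7, 116 and 112 CPM in WT. All KO libraries exceeded the highest WT library. Its log2 fold change was 0.44 (SE 0.0718, edgeR adjusted p = 0.00531). An annotated antisense gene, Gm15679, shares 0.297% of its exon bases and had 4 to 16 counts per library, against at least 896 for Cdh8.

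Cdh22, also called PB-cadherin, had 47.5, 50.7 and 52.3 CPM in KO, against 36.2, 39.0 and 33.4 CPM in WT. The groups were apart, 0.47 higher on the log2 scale in KO (SE 0.0844, adjusted p = 0.00844 by edgeR). This call was lost without KO K80, at an adjusted p of 0.0531 (0.00143 to 0.0531 over the alternatives run).

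Cdh11, first described in bone-forming and other mesenchymal cells and also expressed in brain, was the one gene of the 29 called lower. Its level was 30.1, 35.7 and 27.5 CPM in KO, against 43.2, 42.3 and 41.5 CPM in WT. The WT libraries were nearly equal and the KO libraries spread more widely below them. The difference was -0.45 on the log2 scale (SE 0.102, edgeR adjusted p = 0.0299), and the call was lost without any library but KO K79 (adjusted p 0.0551 to 0.13, and as low as 0.00497 over the alternatives run). Beside it, the summed pericyte and meningeal markers were 20.2 to 37.5 CPM in KO and 14.7 to 34.5 CPM in WT, and the oligodendrocyte precursor markers were lower as given above, their part in this difference being not tested.

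Cdh8 and Cdh11 are direct neighbours in the mouse gene order, with Cdh5 next to Cdh11, and they changed in opposite directions. The libraries held 5.05, 4.12 and 5.17 Cdh8 reads per Cdh11 read in KO, against 2.26, 2.74 and 2.69 in WT. The ratio was 4.78 ± 0.576 in KO and 2.56 ± 0.262 in WT (SD, n = 3 each), which restates the 2 separate calls, since groups apart in opposite directions must be apart in their ratio. Cdh5 encodes the cadherin of vascular endothelium and was at 2.60 ± 0.694 CPM in KO and 2.81 ± 1.17 CPM in WT (log2 fold change -0.13, SE 0.336, edgeR adjusted p = 0.888), beside summed endothelial markers of 15.7 to 28.5 CPM in KO and 17.2 to 31.8 CPM in WT.

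A second run of neighbours, Cdh6, Cdh9, Cdh10 and Cdh12 in that order with Cdh18 just beyond, held no call in the unblocked fit of all 6 libraries. Cdh6 was called only with KO K77 left out, and had 4.33, 9.67 and 9.07 CPM in KO, against 5.56, 5.85 and 4.27 CPM in WT. KO K77 sat among the WT libraries while the other KO libraries were above them. Over all libraries its log2 fold change was 0.58 (SE 0.281, edgeR adjusted p = 0.320), and it was 0.84 with an adjusted p of 0.0389 without KO K77 (0.0389 to 0.674 over the alternatives run). Cdh10 had 17.3, 17.4 and 15.5 CPM in KO, against 14.4, 15.5 and 11.01 CPM in WT (log2 fold change 0.29, SE 0.145, edgeR adjusted p = 0.328). Cdh18 (0.49), Cdh9 (0.22) and Cdh12 (-0.39) stood below 5 CPM in every library, and their log2 fold changes had adjusted p-values of 0.395, 0.795 and 0.604.

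Cdh20 is, with Cdh7 and Cdh19, among the type II genes that lie on chromosome 1 in mouse. It had 29, 53 and 51 counts in KO and 29, 35 and 42 in WT, 0.35 higher on the log2 scale in KO (SE 0.219, adjusted p = 0.462 by edgeR). There were 8.24, 5.66 and 6.22 Cdh7 reads per Cdh20 read in KO, against 3.10, 5.03 and 2.17 in WT, and the groups were apart. Cdh19, the direct neighbour of Cdh7 and known from Schwann cell precursors, had 0, 2 and 6 counts in KO and 0 in each WT library, too few to test. Cdh24 was at 64.6 ± 9.28 CPM in KO and 66.0 ± 8.17 CPM in WT (SD, n = 3 each), and the 95% interval of its log2 fold change ran from -0.30 to 0.23. Per kilobase of exon that was 18.5 CPM in KO and 18.9 CPM in WT, near Cdh8 in KO and above it in WT.

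The make-up of the classical cadherin transcripts also differed between the genotypes in several shares. Levels per kilobase of exon were summed over the 18 classical cadherins in each library, and each gene's share of that sum was taken. Cdh2 made up 31.4, 33.2 and 32.1% in KO, against 36.2, 34.7 and 36.5% in WT. Cdh4 made up 23.7, 23.6 and 26.6% in KO, against 18.2, 19.7 and 18.9% in WT. The Cdh2 share was lower in each KO library although its level was not, and a share depends on every other gene in the sum. Cdh7 had 1.94 ± 0.0202% in KO and 0.971 ± 0.310% in WT, and Cdh11 had 2.34 ± 0.282% in KO and 3.99 ± 0.206% in WT (SD, n = 3 each). Cdh2, Cdh4, Cdh24, Cdh8 and Cdh22 held the 5 largest shares in both genotypes. Exon lengths came from an annotation of a later build than the counts, so the shares are approximate.

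**Figure D4:**
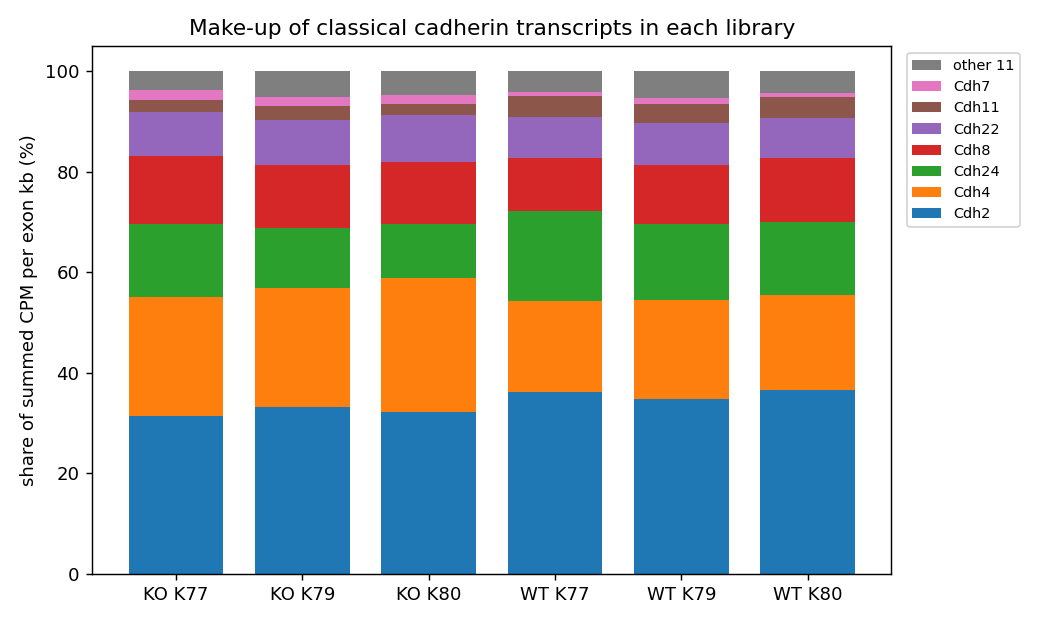
Share of each classical cadherin in the summed CPM per kilobase of exon of the 18 genes, in percent, for the 3 KO and then the 3 WT libraries. The Cdh4 segment covers 23.6 to 26.6% in KO and 18.2 to 19.7% in WT, and the Cdh2 segment 31.4 to 33.2% in KO and 34.7 to 36.5% in WT.

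Cdh13 encodes T-cadherin, which is held in the membrane by a lipid anchor and has no catenin-binding tail. It had 50.4, 63.7 and 46.2 CPM in KO, against 44.5, 43.7 and 33.1 CPM in WT. The lowest KO library was only just above the highest WT library. Its log2 fold change of 0.40 (SE 0.142) had an edgeR adjusted p of 0.145, but 0.0153 with the replicate block and 0.0353 without the filter on low counts, and the authors' deposited table gave 0.40 with an adjusted p of 0.0143. Over the alternatives run its adjusted p was 0.0153 to 0.454, and every fit gave a positive value. Cdh23, a long cadherin of the hair cell tip link, had 11, 15 and 22 counts in KO and 10, 14 and 5 in WT (log2 fold change 0.74, 95% interval -0.12 to 1.60, edgeR adjusted p = 0.359). Cdh17, of intestinal epithelium, had 2 counts in KO and 2 in WT, and Cdh26 had 0 in KO and 3 in WT over all libraries. Cdh16, the kidney cadherin, had no count, where 3 counts, the limit that a count of 0 allows, correspond to 0.271 to 0.360 CPM, before TMM scaling, in these libraries. Cdh29 had no count either, but it also had no entry among the exon lengths used here, so no limit is given for it.

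The Celsr genes encode cadherins with a receptor-like part that spans the membrane several times, and Celsr2 and Celsr3 are known for their roles in axon tracts and neuronal migration in the forebrain. None of the 3 changed by edgeR, DESeq2 or limma voom, and 0 had an unadjusted p under 0.05. Celsr3 was the highest of them per kilobase of exon (44.9 CPM per kb in KO and 43.3 in WT), with 571, 550 and 504 CPM in KO, against 588, 508 and 470 CPM in WT. The groups overlapped throughout, and the 95% interval of the log2 fold change ran from -0.14 to 0.24. For Celsr2 the means were 318 ± 24.0 CPM in KO and 328 ± 37.5 CPM in WT, with an interval of -0.24 to 0.15. Celsr1, associated with progenitors, had 82.1, 91.6 and 68.7 CPM in KO, against 94.9, 104 and 51.6 CPM in WT. Its WT libraries spread from below the lowest KO library to above the highest, and the interval was wide, from -0.53 to 0.44.

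Fat and Dachsous proteins are giant cadherins that bind each other across cell borders, Fat4 pairing with Dchs1 in mammals. Of the 4 tested, edgeR, DESeq2 and limma voom called none, and 0 had an unadjusted p under 0.05. Dchs1 was at 623 ± 50.1 CPM in KO and 612 ± 39.5 CPM in WT (SD, n = 3 each), with a 95% interval of -0.14 to 0.19 for the log2 fold change. The Fat4 means were 147 ± 18.2 CPM in KO and 149 ± 33.9 CPM in WT, with an interval of -0.36 to 0.32. For both genes of the pair the group means were closer together than the SD of either genotype. Fat1 had 133, 186 and 137 CPM in KO, against 146, 190 and 129 CPM in WT. Both K79 libraries were the high ones of their genotype.

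Fat3, which acts in the shaping of neurons in the mouse retina, moved most with the choice of libraries in the family. It had 160, 189 and 175 CPM in KO, against 132, 181 and 111 CPM in WT. WT K79 alone lay among the KO libraries, and the other WT libraries were below all of them. Over the 6 libraries its log2 fold change was 0.31 (SE 0.147, edgeR adjusted p = 0.312), and without WT K79 it was 0.52 with an adjusted p of 0.00942 (0.00942 to 0.612 over the alternatives run). The authors' deposited table called it higher, at 0.31 with an adjusted p of 0.0217. Fat2, known from the cerebellum, had 1 count in KO and 2 in WT over all libraries.

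Other genes of planar polarity were taken as a list of 23 with a row, of which 22 were tested, 1 rose, 2 fell and 19 were not called, with a median log2 fold change of 0.12. Over all tested genes 3.64% were called higher and 2.62% lower. The block raised the calls in that list to 6, and those over all tested genes to 6.13% higher and 4.45% lower. Ror2 encodes a receptor for Wnt5a and had 30, 36 and 39 counts in KO, against 183, 134 and 139 in WT (log2 fold change -2.10, SE 0.210, edgeR adjusted p = 0.000347). Wnt5a had 247, 322 and 358 counts in KO, against 162, 230 and 175 in WT (log2 fold change 0.74, SE 0.118, edgeR adjusted p = 0.00458). Ror2 was therefore lower and Wnt5a higher, each without overlap of counts. Ror1, Ryk and Fzd3, receptor genes of the same list, were not called. Their log2 fold changes were 0.997, 0.0974 and 0.167 (edgeR adjusted p 0.243, 0.542 and 0.218). Fjx1 is the counterpart of the Drosophila gene four-jointed, whose product modifies Fat and Dachsous cadherin domains in the fly. It had 324, 414 and 390 counts in KO, against 469, 589 and 563 in WT (log2 fold change -0.49, SE 0.0830, edgeR adjusted p = 0.00663). All 3 calls held without any single library.

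Among the catenins, 1 of the 5 tested rose and 4 were not called, beside 3.64% of all tested genes called higher and 2.62% lower. Ctnnd2 encodes delta-catenin, the neuronal member of the p120 family, which binds the cadherin tail near the membrane. Its level was 205, 197 and 202 CPM in KO, against 166, 157 and 157 CPM in WT. The spread within each genotype was small, and the groups were apart, with means of 201 ± 4.14 CPM in KO and 160 ± 5.11 CPM in WT (SD, n = 3 each). The log2 fold change was 0.33 (SE 0.0521, edgeR adjusted p = 0.00419), and it stayed called without any single library (adjusted p at most 0.0270).

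Ctnnd1 encodes p120-catenin, the widely expressed member of the same family. It had 291 ± 10.2 CPM in KO and 287 ± 6.17 CPM in WT (SD, n = 3 each), and the 95% interval of its log2 fold change, -0.11 to 0.14, was narrow. The ratio of Ctnnd2 to Ctnnd1 reads was 0.699, 0.657 and 0.723 in KO, against 0.584, 0.553 and 0.535 in WT. It was higher in each KO library than in any WT library. Much of the annotated Ctnnd1 exon sequence, 61.2% of its bases, is also annotated to the gene Gm28635, which had no row of its own in the counts.

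Ctnnb1 encodes beta-catenin, which both links cadherins to alpha-catenin and carries Wnt signals to the nucleus, and by level per kilobase of exon it was the highest of the 29 (295 CPM per kb in KO and 264 in WT). Its level was 1498, 1578 and 1520 CPM in KO, against 1389, 1390 and 1341 CPM in WT. The groups did not overlap, yet the log2 fold change of 0.16 (95% interval 0.04 to 0.27) had an edgeR adjusted p of 0.122. Ulk4 shares 14.6% of its exon bases on the opposite strand, with 40 to 66 counts per library against at least 12458 for Ctnnb1. Of the alpha-catenins, the neural form Ctnna2 was at 441 ± 7.21 CPM in KO and 417 ± 28.1 CPM in WT, the broadly expressed form Ctnna1 at 128 ± 9.63 CPM in KO and 134 ± 13.1 CPM in WT (SD, n = 3 each). Their adjusted p-values were 0.573 and 0.727. Ctnna3, known from heart and testis, had 3 counts in KO and 1 in WT over all libraries.

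Partners of the adherens junction were examined as a list of 31 genes with a row, of which 28 were tested. Of these 0 rose, 1 fell and 27 were not called, beside 3.64% of all tested genes called higher and 2.62% lower. The median log2 fold change of the list was 0.0027. The list holds nectins, afadin, vinculin, other p120-family members, kinases and proteases of the junction. Below the filter, the nectin gene Pvrl4 had 0, 2 and 1 counts in KO, against 13, 9 and 10 in WT, without overlap. Pkp2 (9, 6 and 6 in KO, 5, 9 and 6 in WT) and Pkp3 (1, 1 and 0 in KO, 0 in each WT library) were also below it. The faller of the list was Pkp4, a p120-family gene, with 854, 1121 and 1203 counts in KO, against 1208, 1286 and 1435 in WT. As CPM it stood at 108 ± 4.21 in KO and 131 ± 6.49 in WT (log2 fold change -0.28, SE 0.0623, edgeR adjusted p = 0.0275), which did not hold when any library other than WT K79 was left out (adjusted p up to 0.0970). Pkp4 and Ctnnd2, of the same family, were called in opposite directions, the Pkp4 call with the limit just given. Arvcf and Ctnnd1, also of that family, were not called (log2 fold change 0.18 and 0.019, edgeR adjusted p 0.287 and 0.902). With the replicate block 4 of the 28 were called, beside 6.13% of all tested genes called higher and 4.45% lower. Of 13 desmosomal cadherin and calsyntenin genes with a row, 4 were tested and Clstn2, a synaptic calsyntenin, rose by 0.66 (SE 0.170, edgeR adjusted p = 0.0488), which was lost when any library other than WT K79 was left out (adjusted p up to 0.162). In that list 4 genes, Dsc1, Dsg1b, Dsg1c and Dsg4, had no count in any library.

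**Figure D5:**
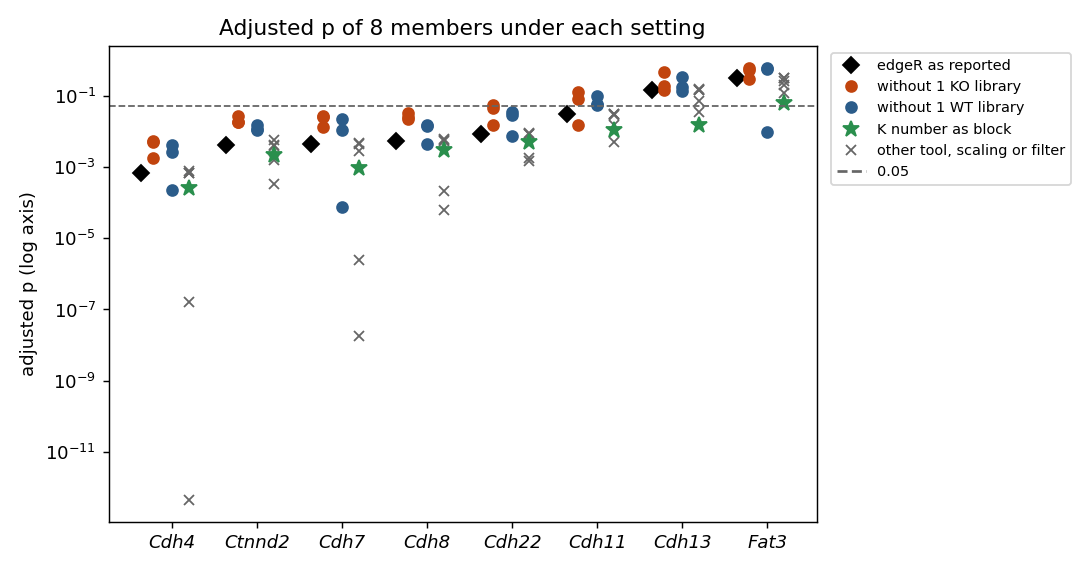
Adjusted p of 8 genes under each way of fitting the comparison, on a log axis, with 0.05 dashed. Diamonds give the edgeR fit of all 6 libraries, circles the fits without 1 KO or 1 WT library, stars the fit with the K number as a block, and crosses another tool, scaling or filter. Cdh4, Ctnnd2, Cdh7 and Cdh8 stay below the line in every fit shown, Cdh22 crosses it once, Cdh11 crosses it in 5 of the 6 fits without a library, and Cdh13 and Fat3 lie mostly above it.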

How the data were processed

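The deposited count files give whole read counts per gene, not normalized, identical to the authors' table of the whole series in all 36291 rows. Build mm9 and the tools DESeq 1.2.2, HTSeq 0.5.3p3 and TopHat 1.2.0 are listed, without role or order, in the submitters' processing notes. Neither the gene annotation nor the strand setting is given in the sources used here. Without strand, reads of a gene and its antisense partner cannot be told apart. Libraries of poly-A RNA had 15 cycles of PCR and single reads of 36 cycles, per the labels' protocols, which name no molecular identifiers. Rows that name no gene stayed out (unassigned 19.7 to 21.8%, ambiguous 1.94 to 1.99% of counts). Per the file headers, the authors' comparison table holds a linear fold (ratio), a log2 fold and p-values. It was taken to run KO over WT, since all 777 calls shared with edgeR had the same sign. The deposited residual variance columns (a score) were not used.

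Counts were tested in R 4.3.3 with edgeR 4.0.16 (TMM, filterByExpr with a minimum count of 10, quasi-likelihood test, Benjamini-Hochberg at 0.05 over 13835 genes, common biological coefficient of variation 9.26%). SE is the log2 fold change over the square root of F, and can be too small at low counts. CPM are TMM-scaled. Exon lengths are of GENCODE M21 on GRCm38, later than mm9, and served only for levels per kilobase, and gene order is RefSeq's on GRCm38.p6. Depth was 8323531 to 11069437 gene counts. Replicate libraries differed beyond sampling noise (chi-square per degree of freedom 3.61 to 4.43 in KO and 5.68 to 10.0 in WT). Same-numbered KO and WT libraries deviated together (correlation 0.256, 0.197 and 0.175 for K77, K79 and K80, -0.176 to -0.0094 otherwise). Deviations were taken from genotype means and cancel within a genotype, so positive same-number values make the others negative on average. The K number was taken to pair libraries in the replicate block only, and the labels do not say what it stands for. Values are of the edgeR fit without the block unless another fit or tool is named. Alternatives were RLE size factors, no filter, 1 CPM in 3 libraries, DESeq2 1.42.0, limma voom (limma 3.58.1), the replicate block, other thresholds and each library left out. Every tested gene of the rule is named, low-count genes are given by counts, and up to 4 called genes per other list are named by lowest p. Some uncalled or untested genes of these lists are also named. The genes and lists were chosen with earlier results of these data known.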

Additional observations from a re-analysis of the deposited data

How the results depend on the processing

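Of 72 alternative values for the 6 called genes, 66 kept direction and call, 6 lost the call and 0 reversed. Of 276 for the 23 uncalled genes, 248 kept both, 4 gained a call and 24 reversed. Genes called higher numbered 4 to 6 with 1 library left out, 4 of them without KO K80, and genes called lower 0 to 1, or 0 at an adjusted p under 0.01. Over all genes 867 calls became 1463 with the replicate block and 427 at 0.01, and 445 to 1044 with 1 library left out, the fewest without KO K80 and the most without WT K79. Adherens junction partners had 4 calls with no filter, 4 with the block, 0 at 0.01, 3 at 0.10 and 0 to 2 without a library. Planar polarity partners had 6 with no filter, 5 by DESeq2, 6 with the block and 5 at 0.10. Over all tested genes the calls were 1288 of 21687 with no filter, 946 of 13835 by DESeq2 and 1280 of 13835 at 0.10. The block changed no call of a cadherin or catenin but that of Cdh13.

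With 1 library left out, log2 fold changes that reversed ranged from -0.14 to 0.064 for Cdh24, -0.38 to 0.58 for Cdh3, -0.36 to 0.26 for Cdh5, -0.0011 to 0.45 for Cdh9, -0.30 to 0.15 for Celsr1, -0.13 to 0.038 for Celsr2, -0.019 to 0.15 for Celsr3, -0.14 to 0.0033 for Ctnna1, -0.0054 to 0.046 for Ctnnd1, -0.037 to 0.080 for Dchs1, -0.20 to 0.14 for Fat1 and -0.20 to 0.093 for Fat4. Limma voom gave 0.011 for Celsr1. The causes were not tested. Depth limits the 9 genes below the filter, none with over 29 counts in a genotype, and whether it explains the 0 of Cdh29 was not tested.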
